A study of Mus musculus with 2 samples.

Results

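The Crym-low cells are 236 injured EpA ependymal cells of the mouse spinal cord that had few transcripts of dividing cells, few transcripts of 4 cilium genes and little Crym. Crym encodes mu-crystallin, a cytosolic protein that binds thyroid hormone. They were chosen by their measured transcripts, from 992 injured EpA cells with at least 2000 unique molecular identifiers (UMIs, each counting 1 captured transcript), of 1004 injured EpA cells and 1559 EpA cells in all. A cell was taken when Mki67, Top2a, Cdk1, Birc5 and Prc1 together had fewer than 5 UMIs, when Ccdc153, Tmem212, Rsph1 and Dynlrb2 together stood below 2500 counts per 1000000 UMIs of the cell (CPM), and when Crym stood below 500 CPM. The Crym-low cells made up 23.8% of the 992 injured cells. The other 756 were 164 Crym-high cells, which met every condition but the last, 412 cells that retained cilium transcripts and 180 cells with transcripts of dividing cells.

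Ependymal cells form the lining of the cord's central canal and carry motile cilia that move the cerebrospinal fluid. After a spinal cord injury some of them divide, leave the canal lining and give rise to glia of the scar. Reactive glia, astrocytes above all, are known for making the intermediate filament protein GFAP, complement components and chondroitin sulfate proteoglycans at a lesion.

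Both libraries came from adult C57BL/6J mice at least 12 weeks old with the genotype Troy-CreERT2+/- x Rosa26-tdTomato, in which a recombinase under the control of Troy marks cells with the red fluorescent protein tdTomato. The uninjured library came from intact cord and the injured library from cord taken at day 3 after the dorsal funiculus had been incised. Cells carrying tdTomato were sorted from 5 mm segments, and the authors' table of EpA cells was used for membership. There was 1 library per condition, the number of mice behind each was not stated in the labels, and injury and library cannot be told apart.

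No test was made on any difference. The conditions that chose the Crym-low cells and all the gene levels below come from the same cells, so every value describes these cells and supports nothing beyond them. Levels are CPM of the summed UMIs of a group, and bracketed ranges are exact 95% intervals that cover counting error only, not variation between mice.

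The chosen cells carried the sort marker and genes of the ependymal lineage. Transcripts of tdTomato stood at 2218 CPM in Crym-low cells, 2006 in Crym-high, 1128 in cilium-retaining, 1677 in dividing and 645 in uninjured EpA cells, against 119 CPM in 26 microglia-like cells of the injured library. Foxj1, the master regulator of motile cilia, stood at 275 CPM, Sox9 at 447 CPM and Sox2 at 671 CPM, the last a pair of transcription factors of neural stem and ependymal cells. The median Crym-low cell had 17919 UMIs (2196 to 87979), against 27343.5 in Crym-high, 11464.5 in cilium-retaining, 49426.5 in dividing and 11415 in the 547 uninjured cells with at least 2000 UMIs. Mitochondrially encoded transcripts took a median of 6.52% of a Crym-low cell's UMIs, between 5.13% in Crym-high and 8.76% in cilium-retaining cells. The part of depth and of the mitochondrial share in the results was not tested. Of the 18 barcodes found in both libraries, 2 were EpA cells and none was a Crym-low cell.

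Crym was counted in some of the Crym-low cells, at low levels. It had no UMI in 100 of the 236 cells (42.4%), and its level over all of them was 152 CPM (141 to 163), against 2322 CPM in Crym-high, 1681 in dividing, 24.8 in cilium-retaining and 0.13 CPM in uninjured cells, where a single UMI was counted. With every cell thinned to 2000 UMIs, 14.4% of Crym-low cells (10.2 to 19.5) had a Crym UMI. Microglia-like cells, which should lack it, had one in 15.4% (4.36 to 34.9). Cilium-retaining cells of the same library had one in 3.16% (1.69 to 5.34). The rule itself caps Crym in the Crym-low cells, so nothing is read from how these shares compare. The source of the Crym UMIs in the Crym-low cells was not tested. Counting of single transcripts limits the rule too, since 1 UMI in a cell of 2000 UMIs already equals 500 CPM.

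**Figure D1:**
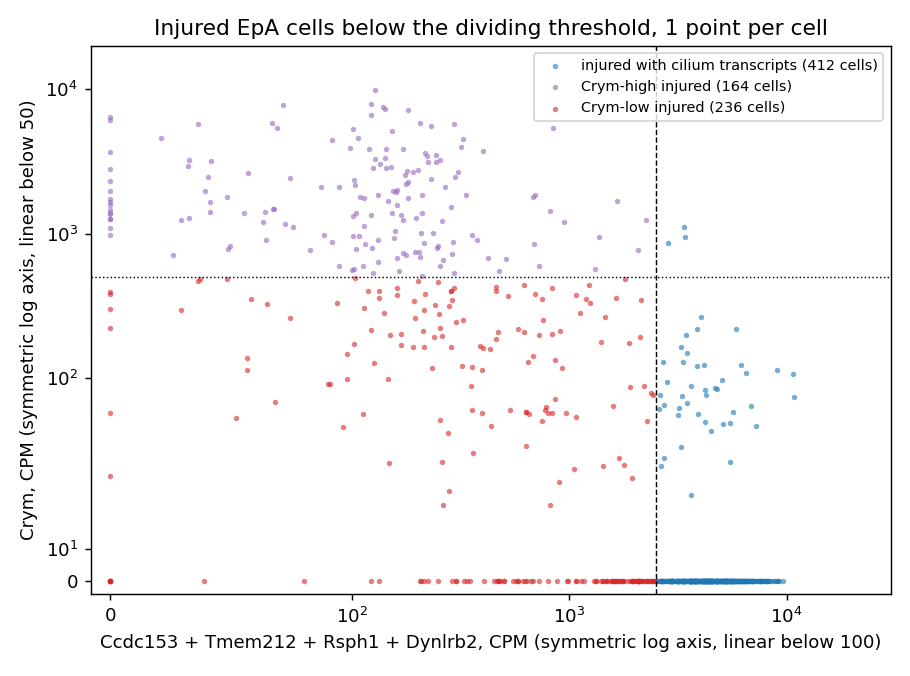
Each point is 1 injured EpA cell with at least 2000 UMIs and fewer than 5 UMIs of the dividing-cell genes. The horizontal axis gives the summed CPM of the 4 cilium genes and the vertical axis Crym in CPM, both on symmetric log scales; the dashed line marks 2500 CPM and the dotted line 500 CPM. The 236 Crym-low cells fill the lower left, with 100 of them at a Crym of 0.

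The plot of single cells by Crym and cilium transcripts shows no gap at either threshold. The cilium sum had a median of 583 CPM per Crym-low cell, with quartiles of 216 and 1489 CPM, between 141 CPM in Crym-high and 4367 CPM in cilium-retaining cells. The 50 cells just inside the Crym threshold, at 250 to 500 CPM, had C3 at 24.6, Vcan at 165 and Gfap at 1236 CPM. The 47 cells just outside it, at 500 to 1000 CPM, had C3 at 5.22, Vcan at 88.1 and Gfap at 935 CPM. The 71 cells just inside the cilium threshold, at 0.5 of it or more, had C3 at 105, Vcan at 95.7 and Gfap at 1096 CPM. The 264 cells just outside it, at 2500 to 5000 CPM with low Crym, had C3 at 44.2, Vcan at 27.6 and Gfap at 312 CPM. The 10 cells with 3 or 4 UMIs of the dividing-cell genes had C3 at 12.1 CPM, and 3 cells with 5 or 6 UMIs that met the rest of the rule had no C3 UMI.

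The label's markers are 2 complement genes, a glial filament, a proteoglycan and a Ly6 family gene. C3, Gfap, C4b and Vcan each stood higher in them than in any of the other 3 injured groups and the uninjured cells, whereas Lypd1 was shared with Crym-high cells. These 5 markers were chosen on the same cells, so their levels are given as a description.

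C3 encodes the central component of complement, on which all its activation routes converge. It stood at 63.2 CPM (56.3 to 70.6) in Crym-low, 11.2 in Crym-high, 33.9 in cilium-retaining, 1.25 in dividing and 1.04 CPM in uninjured cells. Its next highest group was thus the cilium-retaining one, 1.86-fold lower than the Crym-low cells. The gene lies on chromosome 17 (GRCm38 57203970 to 57228136, minus strand).

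C4b, a component of the classical complement route, stood at 109 CPM (100 to 119) in Crym-low, 66.7 in Crym-high, 64.8 in cilium-retaining, 21.6 in dividing and 1.56 CPM in uninjured cells. It lies on the same chromosome (34728380 to 34743882, minus strand) beside a near-identical copy, and how the authors' counting split reads between the copies was not stated in the labels. The order of C4b levels placed the Crym-low cells first, and the Crym-high and cilium-retaining cells level with each other.

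Gfap, the intermediate filament of astrocytes, stood at 1287 CPM (1255 to 1319) in Crym-low, 785 in Crym-high, 247 in cilium-retaining, 267 in dividing and 8.59 CPM in uninjured cells. It was the most widely detected of the 5 markers. Vcan, which encodes the chondroitin sulfate proteoglycan versican of the extracellular matrix, stood at 203 CPM (191 to 216), against 79.5, 24.8, 51.7 and 7.03 CPM in the same order of groups. Gfap lies on chromosome 11 (102887336 to 102900912, minus strand) and Vcan on chromosome 13 (89655312 to 89742509, minus strand).

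Lypd1 encodes a small membrane-anchored protein of the Ly6 family that binds nicotinic acetylcholine receptors. It stood at 81.2 CPM (73.5 to 89.6) in Crym-low and 80.4 CPM in Crym-high cells, a ratio of 1.01 (0.877 to 1.17). It was low in cilium-retaining (4.03), dividing (16.8) and uninjured cells (2.99 CPM). Lypd1 therefore did not mark the Crym-low against the Crym-high cells. The gene lies on chromosome 1 (125867622 to 125913101, minus strand).

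**Figure D2:**
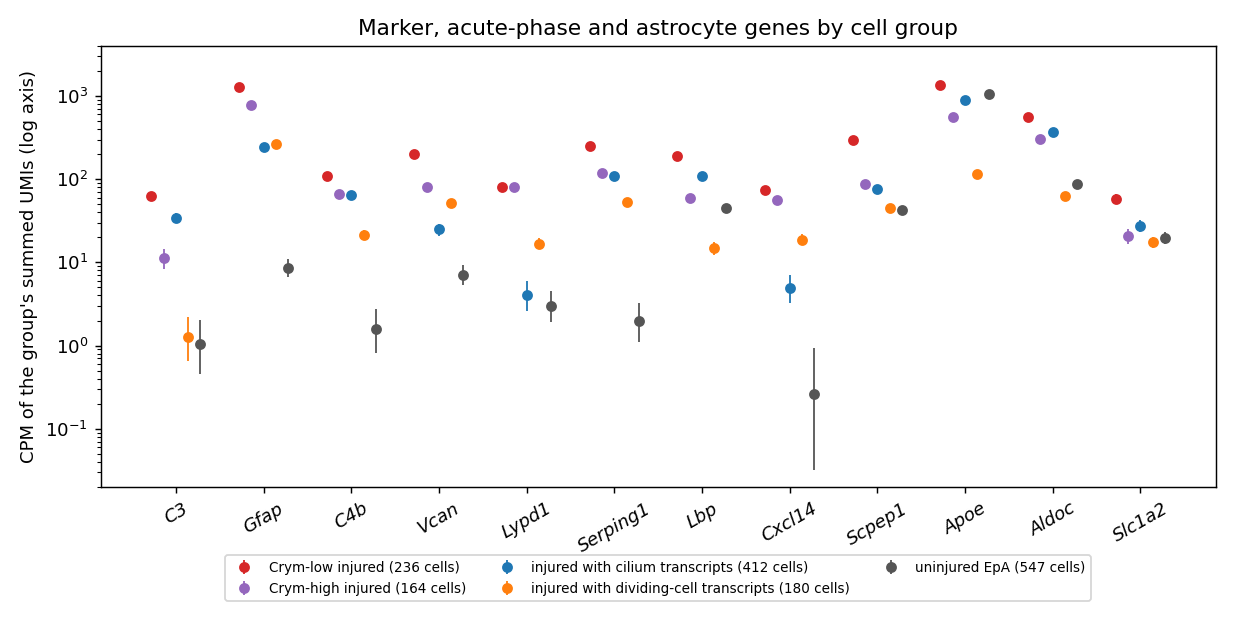
Levels of 12 genes as CPM of each group's summed UMIs on a log axis, with exact 95% intervals for counting error. The 236 Crym-low cells (red) are the highest group for the genes shown, from Slc1a2 at 58.5 CPM to Apoe at 1355 CPM, with Lypd1 level with Crym-high cells (81.2 and 80.4 CPM).

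The markers were unevenly spread over the cells. At 2000 UMIs per cell, Gfap was seen in 63.6% of Crym-low cells (57.1 to 69.7), Vcan in 22.9% (17.7 to 28.8), C4b in 14.8% (10.6 to 20.02), Lypd1 in 13.1% (9.10 to 18.1) and C3 in 8.90% (5.59 to 13.3). Without thinning the shares were 91.5%, 63.1%, 66.1%, 49.2% and 32.6%. Among the 26 microglia-like cells, at a median of 29551.5 UMIs before thinning, C4b was seen in 1 cell (3.85%) and the other 4 markers in none, which allows shares of up to 13.2% each. The C4b interval of the microglia-like cells (0.0973 to 19.6) overlaps that of the Crym-low cells, while their C4b level was 12.3 CPM.

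At the thinned depth the Crym-high cells had C3 in 1.83% (0.379 to 5.25) and Gfap in 51.2% (43.3 to 59.1). They had Vcan in 15.2% (10.1 to 21.7), C4b in 12.2% (7.61 to 18.2) and Lypd1 in 17.1% (11.7 to 23.7). The markers were chosen on the same cells, and the intervals leave out variation between mice. Nothing is therefore read from how these shares compare with those of the Crym-low cells. Unthinned, 21 Crym-low cells had all 5 markers and 8 had none. C3 and Gfap were seen together in 74 cells, C3 and Vcan in 46. C3 was the most concentrated: 77 cells held its 311 UMIs, and the 24 cells richest in it held 71.7% of them. Gfap ranged from a lower quartile of 216 CPM per cell through a median of 606 to an upper quartile of 1561 CPM.

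Against all other injured EpA cells, the Crym-low cells had more transcripts of 3 complement genes, of 5 astrocyte genes and of Lbp, and fewer of dividing-cell genes. The rule keeps dividing cells out and so sets the lower side. Of 3344 genes with at least 50 CPM in either group, 37 (1.11%) had a ratio of 2 or more in favour of the Crym-low cells and 114 (3.41%) were lower by that factor. The rule used the same cells, and nothing is read from these shares. The 180 dividing cells supplied 9575102 of the 20360655 UMIs of the other injured cells. With dividing cells left out, an alternative added after the data had been seen, 16 genes were higher and 70 lower. Of the 151 genes, 22 were called again, so levels are given below for each of the groups. Over the alternatives the log2 ratio fell below 2-fold for C4b (0.73) and the astrocyte genes Aldoc (0.72), Apoe (0.87) and Ntsr2 (0.97). It stayed above 2-fold for C3, Serping1, Slc1a2 and Lbp. Of 29 measured dividing-cell genes outside the rule, 27 were 2-fold lower and none was higher, beside 3.87% lower and 1.06% higher among all genes with a mean of 5 CPM or more.

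The higher genes beside the markers included Serping1 and Lbp. Serping1 encodes the C1 inhibitor, which restrains the first step of the classical complement route. It stood at 248 CPM (235 to 263) in Crym-low, 120 in Crym-high, 109 in cilium-retaining, 53.1 in dividing and 1.95 CPM in uninjured cells. Lbp encodes the lipopolysaccharide-binding protein of the acute phase. It stood at 189 CPM (177 to 201), against 59.4, 110, 14.7 and 45.4 CPM, and was thus present at rest and in cells that retained cilium transcripts. Cxcl14, a chemokine, stood at 74.7 CPM in Crym-low, 55.5 in Crym-high, 4.87 in cilium-retaining and 0.26 CPM in uninjured cells, but also at 115 CPM in the 26 microglia-like cells. At 2000 UMIs it was seen in 11.02% of Crym-low, 10.98% of Crym-high and 11.5% of microglia-like cells. The source of these transcripts in the Crym-low cells was not tested.

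Scpep1, a serine carboxypeptidase, was the gene furthest above its next highest group. It stood at 292 CPM (277 to 308) in Crym-low cells, and the next was Crym-high at 86.4 CPM, 3.38-fold lower. The microglia-like cells had it at 130 CPM. Vcan followed at 2.55-fold above its next group, then Itgb4, the beta subunit of a laminin-binding integrin, at 2.21-fold, Slc1a2, a glutamate transporter of astrocytes, at 2.13-fold, and Serping1 at 2.08-fold. Among 3041 genes with at least 50 CPM in Crym-low cells, 311 were highest there, and 6 of them by at least 2-fold over the next of the 5 groups. The genes entered by their level in the Crym-low cells, so nothing is read from these counts. Fxyd1, a regulator of the sodium pump, stood at 935 CPM in Crym-low, 415 in Crym-high, 636 in cilium-retaining, 135 in dividing and 448 CPM in uninjured cells. Tmem255a and Mfsd7b, which completed the 15 highest ratios, stood at 149 and 57.3 CPM, and at 103 and 51.2 CPM in cilium-retaining cells.

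Astrocyte genes were higher in part. Apoe, the main lipid carrier of glia, stood at 1355 CPM in Crym-low, 557 in Crym-high, 893 in cilium-retaining, 116 in dividing and 1044 CPM in uninjured cells, and at 15048 CPM in microglia-like cells. Aldoc, a glycolytic aldolase, stood at 562 CPM against 300, 372, 62.6 and 88.5 CPM. Slc1a2 stood at 58.5 CPM against 20.5, 27.5, 17.5 and 19.7 CPM. Of 17 measured astrocyte genes (mean of at least 5 CPM in the groups compared), 5 were 2-fold higher than in the other injured cells and 1 was 2-fold lower, beside the same 1.06% and 3.87% of all genes. Against uninjured cells, 4 of 16 were 2-fold higher and 1 was lower, beside 8.63% and 10.7% of all genes. The list summed to 6370 CPM in Crym-low and 3948 in Crym-high cells. It summed to 7866 in cilium-retaining, 1932 in dividing and 7518 CPM in uninjured cells.

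Other astrocyte genes went the other way or stayed close. Aldh1l1, a folate enzyme widely used as an astrocyte marker, was at 8.94 CPM in Crym-low against 27.3 CPM in Crym-high cells, 3.06-fold lower (2.16 to 4.41). Against uninjured cells Aldh1l1 was higher, at a log2 ratio of 3.42 (2.93 to 4.02 over the alternatives). Aqp4, the water channel of astrocytes and ependyma, stood at 98.1 CPM, above Crym-high (37.7) and below cilium-retaining (155) and uninjured cells (132 CPM). Slc1a3, the second glutamate transporter of glia, was nearly level with Crym-high cells at 224 and 218 CPM.

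Complement genes were few in number. Of 25 listed, 7 were measured. Of these, 3 were 2-fold higher than in the other injured cells and none was lower, beside 1.06% and 3.87% of all genes. The median log2 ratio was 0.83 against -0.01 over all genes. The 4 within 2-fold included Cd55, which accelerates the decay of complement convertases, at 235 CPM against 175 CPM in the other injured cells. Clu, which encodes clusterin, an inhibitor of the membrane attack complex, stood at 1916 CPM, between 1103 in Crym-high and 3821 CPM in cilium-retaining cells. Early components were nearly absent, with C1s1 at 2.64 CPM and C1ra at 1.02 CPM.

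The closest comparison is with the 164 Crym-high cells, which differ in the rule by Crym alone. The Crym-low cells had more transcripts of motile cilium and ependymal genes outside the rule, and of complement and some astrocyte genes. They had fewer transcripts of feedback genes of the ERK pathway, of cyclin D1 and of several progenitor genes. Of 3263 genes, 156 (4.78%) passed 2-fold upwards and 35 (1.07%) downwards in Crym-low cells. Higher genes were 81.7% of the 191 calls, and 67.6% of the calls when all cells were thinned to 2000 UMIs.

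Complement and astrocyte genes were higher in part. Of the 7 measured complement genes, C3 was 5.65-fold (4.22 to 7.69), Serping1 2.08-fold (1.88 to 2.29) and Cd59a, an inhibitor of the membrane attack complex, 2.07-fold higher, and none was 2-fold lower. Over the alternatives the log2 ratio of Serping1 ran from 0.95 to 1.15, on both sides of 2-fold. C4b and Gfap were 1.64-fold higher (1.42 to 1.88 and 1.57 to 1.71). Of 18 measured astrocyte genes, Slc1a2, Aqp4, Apoe and Mlc1 were 2-fold higher and Aldh1l1 was lower, beside 5.14% and 1.79% of all genes at a mean of 5 CPM.

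Cilium genes were higher almost throughout. Of 54 measured cilium genes outside the rule, 44 were 2-fold higher than in Crym-high cells and none was lower. Among all genes 5.14% were higher and 1.79% lower. The list's median log2 ratio was 1.43 against 0.02 for all genes. Dnah6, a dynein heavy chain of the cilium, stood at 85.5 CPM in Crym-low, 14.5 in Crym-high and 295 CPM in cilium-retaining cells, a ratio of 5.90 over Crym-high (4.57 to 7.71). Odf3b, an outer dense fibre protein, stood at 66.0, 12.6 and 322 CPM and Iqca at 66.2, 12.4 and 305 CPM in the same groups. The rule admits up to 2500 CPM of 4 other cilium genes in both groups and did not match them, and with that threshold at 0.5 of its value the higher genes numbered 81 in place of 156.

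Ependymal identity genes ran alongside. Of 18 measured, 10 were 2-fold higher than in Crym-high cells and none was lower, beside 5.14% and 1.79% of all genes. Nnat, a small membrane proteolipid abundant in ependyma, stood at 2069 CPM in Crym-low, 452 in Crym-high, 5870 in cilium-retaining and 5595 CPM in uninjured cells. Mia, a secreted protein, stood at 670 against 217 CPM, Pltp, a phospholipid transfer protein, at 314 against 120 CPM, and Foxj1 at 275 against 127 CPM. Stoml3, a stomatin-like membrane protein, stood at 63.4 against 5.80 CPM, a ratio of 10.9 (7.41 to 16.7), and Pcp4, a calmodulin regulator, at 80.8 against 8.49 CPM. Sox9 and Sox2 were close, at 447 against 405 CPM and 671 against 535 CPM.

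Among genes with at least 50 CPM in either group and outside the rule, the largest ratio over Crym-high cells was that of Hspa1b, which encodes an inducible heat shock protein of the Hsp70 kind. It stood at 66.4 CPM in Crym-low, 5.80 in Crym-high, 170 in cilium-retaining and 163 CPM in uninjured cells. Its near-identical neighbour Hspa1a stood at 99.3, 16.6, 142 and 115 CPM, and reads of the 2 genes can be split by the counting. The median mitochondrial share was 6.52%, 5.13%, 8.76% and 11.3% in the same 4 groups, and its part in the result was not tested.

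On the lower side stood targets and brakes of receptor tyrosine kinase signalling. Of 12 measured ERK feedback genes, 5 were 2-fold lower than in Crym-high cells and none was higher, beside 1.79% lower and 5.14% higher among all genes, with a median log2 ratio of -0.87. Spry1, an inhibitor of that pathway, stood at 30.9 CPM in Crym-low and 101 CPM in Crym-high cells, 3.29-fold lower (2.73 to 3.97). Etv5, a transcription factor induced by the pathway, stood at 19.1 against 56.8 CPM, and Dusp6, an ERK phosphatase, at 8.12 against 24.9 CPM. Spred1, another inhibitor, was level at 39.6 against 38.3 CPM.

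A minority of progenitor genes was lower, and some genes of other lists. Wnt7b, a secreted Wnt ligand, had the lowest ratio over Crym-high cells among the genes named at the floor of 50 CPM, at 10.97 CPM in Crym-low and 60.3 CPM in Crym-high cells, 5.50-fold lower (4.10 to 7.49). Ccnd1, which encodes cyclin D1 of the G1 phase, stood at 61.1 against 196 CPM, and Cdkn1a, the cell cycle inhibitor p21, at 20.3 against 56.3 CPM. Of 22 measured neural stem and progenitor genes, 5 were 2-fold lower, 1 was higher and 16 were within 2-fold. Among all genes 1.79% were lower and 5.14% higher, and the list's median log2 ratio was -0.30. Sox11 stood at 22.7 against 73.7 CPM and Fabp7, a fatty acid binding protein of radial glia, at 326 against 827 CPM, while Nes, the progenitor filament nestin, stood at 164 against 267 CPM. The higher one was Tnfrsf19, the gene also called Troy, at 12.6 against 4.76 CPM.

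Lgals1, the lectin galectin-1, stood at 567 against 1643 CPM in Crym-high cells, with 25.5 CPM in cilium-retaining and 13.5 CPM in uninjured cells. Thbs2, a matrix thrombospondin, stood at 68.7 against 197 CPM, and Olfml3, a secreted matrix protein, at 109 against 308 CPM. Stmn1, a regulator of microtubules, stood at 173 against 518 CPM. With the 3 Crym-low cells richest in Spp1 left out, an alternative added after the data had been seen, 54 genes in place of 35 were 2-fold lower than in Crym-high cells.

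Several lists of injury genes had few or no members 2-fold apart between Crym-low and Crym-high cells. None of 22 measured interferon response genes and none of 15 genes of the gp130 and Stat3 axis differed 2-fold, beside 5.14% higher and 1.79% lower among all genes, so counts of 0 are near the background. With cells thinned to 2000 UMIs, 2 interferon genes were higher and 4 lower. Stat3 itself, the factor downstream of gp130 cytokines, stood at 118 and 124 CPM and its feedback inhibitor Socs3 at 312 and 322 CPM. Of 23 reactive glia genes, S1pr3, a sphingosine phosphate receptor, was 2-fold higher (30.7 against 11.6 CPM) and Ptx3 was 2-fold lower. Vim, the filament vimentin, stood at 16257 and 19190 CPM, and Hspb1, a small heat shock protein, at 1935 and 1852 CPM. Among 20 matrix genes, Vcan was the 1 higher and Thbs2 the 1 lower. Thus Vcan did not move with a list of proteoglycans, of which Ptprz1 stood at 113 and 119 CPM, Ncan at 3.45 and 5.18 CPM, and Hapln1, a link protein that binds versican, had no UMI in any EpA group.

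Among genes at least 2-fold apart between Crym-high and cilium-retaining cells, most had a level in Crym-low cells between those of the 2 groups. The markers C3, C4b, Gfap and Vcan stood above both groups. Of 412 genes at least 2-fold higher in Crym-high than in cilium-retaining cells, 393 (95.4%) had an intermediate level in Crym-low cells, at a median of 0.733 of the way up on the log2 scale. Of 715 genes at least 2-fold lower in Crym-high cells, 711 (99.4%) were intermediate. The rule itself places the cells below the cilium threshold and below the Crym threshold, so this order is partly set by it and is a description.

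Against the 547 uninjured cells, the Crym-low cells carried the reactive glia, contractile and antigen presentation genes at higher levels, and cilium genes at lower levels. Of 3647 genes, 311 (8.53%) were higher by a factor of 2 or more and 468 (12.8%) lower. Gfap was 150-fold higher (118 to 194), Serping1 127-fold (76.8 to 228), C4b 69.8-fold (39.6 to 136) and C3 60.6-fold (30.4 to 142). Vcan was 28.9-fold (22.0 to 38.7) and Lypd1 27.1-fold higher (17.8 to 43.3).

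Of 22 measured reactive glia genes, 19 were 2-fold higher than in uninjured cells and none was lower, beside 8.63% and 10.7% of all genes at that level. Serpina3n, a secreted serine protease inhibitor of reactive astrocytes, stood at 63.2 CPM and had no UMI in uninjured cells, at least 162-fold higher than the 0.391 CPM that 3 counts over the group would give. Osmr, the receptor of oncostatin M, stood at 46.9 against 0.651 CPM and Cd44, a hyaluronan receptor, at 36.4 against 2.34 CPM. Lcn2, a secreted iron-binding protein often used as a marker of reactive glia, was at 1.42 CPM in Crym-low cells.

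The contractile and cytoskeletal list had 27 of 38 genes 2-fold higher and none lower, beside 8.63% and 10.7% of all genes. S100a6, a calcium-binding protein, stood at 1724 against 55.5 CPM. For interferon response it was 14 of 19, with Bst2 at 60.5 against 10.5 CPM and Isg15 at 14.2 against 1.56 CPM, although 22 of the 236 cells held all Isg15 UMIs and 5 cells held 65.7% of them. For class I antigen presentation it was 7 of 11, with B2m, the shared light chain, at 154 against 18.9 CPM. Genes of axon growth were also present, with Gap43, the growth cone protein, at 55.0 against 0.13 CPM and Chl1, an adhesion molecule, at 148 against 0.781 CPM.

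Cilium genes were reduced but not lost. Of 55 measured, 44 were 2-fold lower than in uninjured cells and none was higher, beside 10.7% and 8.63% of all genes. Their median log2 ratio was -1.37. Foxj1, the regulator above them, was 1.53-fold lower (1.44 to 1.63), at 275 against 422 CPM. Dnah6 was 3.32-fold lower (2.99 to 3.70), Hydin, a protein of the cilium's central pair, 6.53-fold lower (5.48 to 7.84), and Rarres2, the chemokine-like chemerin, 12.0-fold lower (11.1 to 13.0). Sntn, a protein of the cilium tip, was 14.6-fold lower, at 3.25 against 47.4 CPM.

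**Figure D3:**
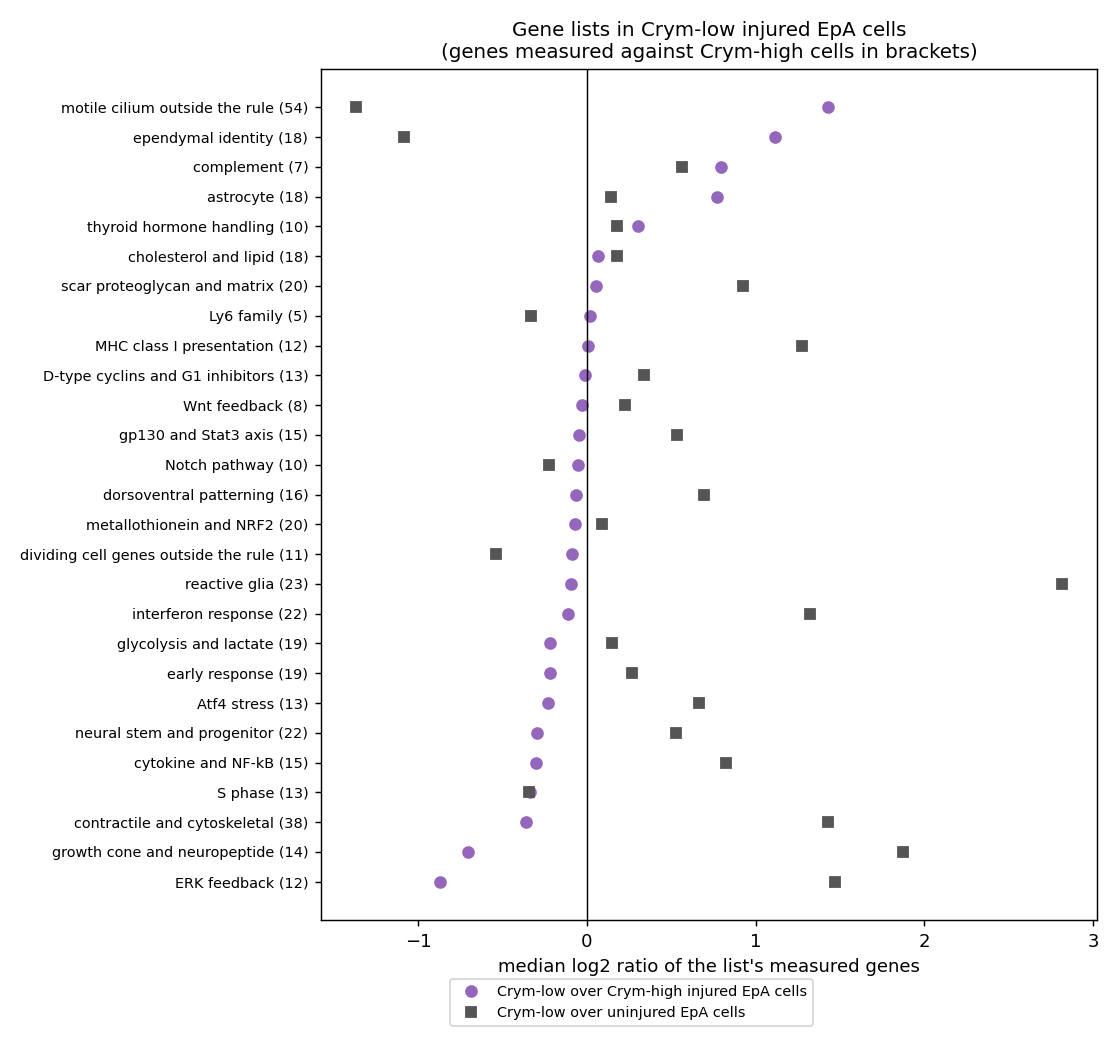
Median log2 ratio of the measured genes of each list, for Crym-low over Crym-high (circles) and Crym-low over uninjured cells (squares); brackets give the genes measured against Crym-high cells. The cilium list lies at 1.43 over Crym-high and -1.37 over uninjured cells, and the ERK feedback list is lowest over Crym-high at -0.87.

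The plot of list medians shows the cilium and ependymal lists with opposite signs in the 2 comparisons. Both comparisons share the Crym-low cells. D-type cyclins and cell cycle inhibitors had 2 of 13 measured genes lower than in Crym-high cells and none higher, beside 1.79% and 5.14% of all genes. With so few members measured and called, nothing is read from this count and the next 2. Of 13 measured S phase genes, Gins2, a part of the replication helicase, was 2-fold lower and none was higher. Of 10 measured genes of thyroid hormone handling, Crym, a rule gene, was lower and Thrb, a thyroid hormone receptor, was 2-fold higher (9.95 against 4.76 CPM).

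The Crym-low cells were not uniform. Clustered on their own, they fell into 4 clusters of 67, 64, 63 and 42 cells, which also ordered by depth, cilium transcripts and Crym. They are called by number and leading genes. At a lower and a higher resolution there were 3 and 7 clusters, so the borders depend on that choice. Cluster levels describe the cells that formed the clusters.

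Cluster 3, led by Tmem212, Clec3b and Stoml3, held 63 cells at the cilium-rich end, with a median cilium sum of 1914 CPM and a median Crym of 0. C3 stood at 135 CPM (112 to 162) and C4b at 145 CPM there, while Vcan (78.5 CPM) and Lypd1 (13.7 CPM) were lower than in the other clusters. The cells had a median of 12082 UMIs and 9.34% mitochondrial transcripts, the shallowest of the 4 clusters and the one with the highest mitochondrial share. The part of depth and mitochondrial share in the cluster was not tested.

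Cluster 4, led by Ifit3, C3 and H2-T23, held 42 cells with C3 at 145 CPM (120 to 174), Vcan at 255 CPM and Lypd1 at 76.4 CPM. Ifit3, an interferon-induced antiviral effector, stood at 54.8 CPM against 2.95 to 20.5 CPM in the other clusters. At the higher resolution 15 of these cells and 2 of cluster 3 formed a group of 17 led by Isg15 and Ifit3. Of the Ifit3 UMIs of all Crym-low cells, 5 cells held 62.4%.

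Cluster 2, led among named genes by Itpr2, Dapl1 and Scpep1, held 64 cells with the highest Scpep1 (425 CPM), Lbp (264 CPM) and Gfap (1480 CPM). Vcan stood at 250 CPM and C3 at 35.8 CPM. At the higher resolution 24 of its cells formed a group with Vcan at 550 CPM beside 160 CPM in the remaining Crym-low cells, together with C1ql1, a complement-like secreted protein that oligodendrocyte precursors also make.

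Cluster 1, led by Spp1, Vgf and Fbln2, held 67 cells with the highest median Crym of the 4 clusters, 199 CPM. Over the cluster Crym stood at 235 CPM, Nes at 370, Lgals1 at 1233 and Ccnd1 at 138 CPM, and C3 at 13.0 CPM (8.14 to 19.7), close to the 11.2 CPM of Crym-high cells. Gfap stood at 1273, Vcan at 201 and Lypd1 at 100 CPM. These levels joined unlike cells: at the higher resolution 16 of the 67 cells formed a group led by Spp1, with Gfap at 234, Vcan at 61.7, Lypd1 at 45.3, Nes at 825 and Lgals1 at 2064 CPM. The other 51 had Gfap at 1775, Vcan at 268, Lypd1 at 127, Nes at 150 and Lgals1 at 833 CPM. Fbln2, a matrix fibulin, went from 32.7 to 5.50 CPM over all Crym-low cells without the 3 cells richest in Spp1. C3 stood highest in clusters 3 and 4, and Vcan in clusters 1, 2 and 4.

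**Figure D4:**
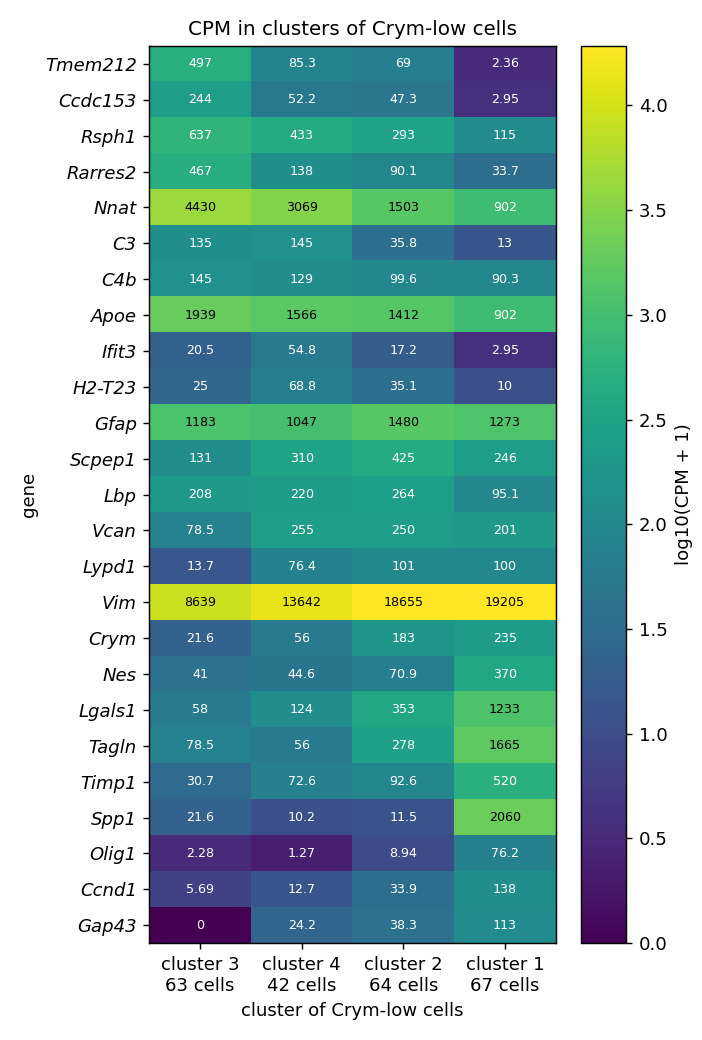
CPM of 25 genes in the 4 clusters of Crym-low cells, coloured by log10(CPM + 1), with the clusters ordered from the most cilium transcripts (cluster 3) to the fewest (cluster 1). C3 falls from 135 and 145 CPM in clusters 3 and 4 to 35.8 and 13.0 CPM in clusters 2 and 1, whereas Gfap lies between 1047 and 1480 CPM in all 4.

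A few cells carried some injury genes almost alone. Spp1, the secreted phosphoprotein osteopontin, stood at 718 CPM over all Crym-low cells, but 5 cells held 98.1% of its UMIs. Without the 3 cells that had at least 5 Spp1 UMIs, the level was 16.1 CPM in the remaining 233. Timp1, a metalloproteinase inhibitor, went from 225 to 86.5 CPM and Tagln, the smooth muscle protein transgelin, from 684 to 341 CPM. The 3 cells had 39830 to 87979 UMIs each, and microglia-like cells had Spp1 at 23776 CPM. The 10 Crym-low cells with 3 or 4 UMIs of the dividing-cell genes had Spp1 at 8874 CPM. It stood at 1852 CPM in the 3 EpA cells with 5 or 6 such UMIs that met the rest of the rule. The source of the Spp1 transcripts was not tested. The markers barely moved without the 3 Spp1-rich cells, with C3 at 65.8, Gfap at 1332 and Vcan at 208 CPM.

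Cells without any Crym UMI differed from the rest in C3 more than in the other markers. The 100 cells at a Crym of 0 had C3 at 103 CPM, C4b at 127, Vcan at 233, Gfap at 1034 and Lypd1 at 67.7 CPM. The 136 cells with Crym had C3 at 47.9, C4b at 102, Vcan at 192, Gfap at 1385 and Lypd1 at 86.5 CPM. Their median depth was 13222 against 22703 UMIs, and zero counts of Crym are more frequent in shallow cells. In the 79 shallowest, 78 middle and 79 deepest cells, C3 stood at 83.2, 55.9 and 60.9 CPM and Gfap at 891, 1376 and 1361 CPM.

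Transcripts that define other cell types were scarce, apart from those of the astrocyte list. The 22 astrocyte genes summed to 6370 CPM in Crym-low cells, against 1932 to 7866 CPM in the other EpA groups. The 18 microglia markers summed to 66.6 CPM in Crym-low cells, with Cx3cr1, Ptprc and Itgam at 0 and 2 cells above 1000 CPM, against 41.4 to 52.2 CPM in the other EpA groups. Of 12 oligodendrocyte precursor markers in the table, 8 had a UMI and summed to 81.9 CPM, with Pdgfra, Sox10, Tnr and Nkx2-2 at 0, against 12.0 to 90.3 CPM in the other EpA groups. Endothelial, pericyte and fibroblast markers summed to 13.2, 18.5 and 45.7 CPM, and 6 neutrophil markers had no UMI. Oligodendrocyte markers summed to 133 CPM, against 99.0 to 177 CPM in the other EpA groups. Neuron markers summed to 455 CPM, against 247 to 932 CPM in the other EpA groups, Stmn2 being the most abundant and Rbfox3, Gad1 and Slc32a1 at 0. The part of these transcripts in the results was not tested.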

How the data were processed

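Single cells were sorted for tdTomato and sequenced with a 10x Genomics 3′ v2 kit, per the labels' protocols. Cell Ranger 3.0.1, Seurat and the mm10 build were used, per the submitters' processing notes; which tool did what, how EpA cells were picked and which annotation was counted on is not given in the sources used here. What the authors deposited is raw UMI counts per gene and cell, with 17189 genes in the EpA table. Positions are from GENCODE M21 on GRCm38, the build mm10.

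UMIs were summed over the cells of a group and scaled to CPM, and log2 ratios were taken with 0.5 counts added. Genes were called by size alone, at 2-fold with at least 50 CPM in either group, and list genes at a mean of at least 5 CPM. Intervals are exact at 95% (Poisson for levels, conditional binomial for ratios, Clopper-Pearson for shares). A gene at 0 was set against 3 counts over the group. Group totals ran from 4828040 to 9575102 UMIs. Shares used cells thinned to 2000 UMIs. The Crym-low cells were clustered by the Leiden method (scanpy 1.11.5, resolution 0.5) on 1500 variable genes, with 15 principal components and 15 nearest neighbours. Microglia-like cells were kept cells outside the EpA set, with C1qa, C1qb, C1qc, Tyrobp, Fcer1g and Ctss together at 5000 CPM or more. Scrublet called 4 of 1566 injured and 4 of 876 uninjured barcodes doublets, none Crym-low; a rate this low can miss doublets, and no cell was removed. TMM factors came from edgeR 4.0.16, and the calculation was tested on simulated data. The 12 injured and 8 uninjured EpA cells under 2000 UMIs were left out.

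The members, lists, markers and the rule for named genes were chosen with earlier results of these data known. Named genes are the 15 highest and 15 lowest ratios over other injured and over Crym-high cells (without genes of the rule and predicted, mitochondrial or ribosomal genes), the markers, up to 6 members of each list with the largest ratios, and the best known members that did not differ 2-fold. Genes that lead clusters were named from their rank there. Some of the 35 lists had at most 2 measured members 2-fold apart between Crym-low and Crym-high cells. These included Notch, metallothionein and NRF2, Atf4 stress, glycolysis, cholesterol, early response, cytokine and dorsoventral patterning genes. Of 8 measured Wnt feedback genes, Tnfrsf19 was 2-fold higher and 2, Lgr5 and Ccnd1, were lower. Among all genes 5.14% were higher and 1.79% lower. Alternatives covered scaling, weighting, depth, floors, thresholds, cell quality and doublets.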

Additional observations from a re-analysis of the deposited data

How the results depend on the processing

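Counts of genes 2-fold apart moved with the CPM floor. At 20 and 100 CPM in place of 50, 62 and 21 genes were higher and 243 and 47 lower than in other injured cells, 325 and 73 higher and 86 and 16 lower than in Crym-high cells, and 549 and 201 higher and 773 and 271 lower than in uninjured cells. Against other injured cells, weighting every cell alike left 70 lower genes, and leaving the dividing cells out, which was added after seeing the data, left 16 higher and 70 lower genes. Without dividing cells the log2 ratio reversed for Arpc1b (0.11), Birc5 (0.10), Ccnb1 (0.48), Cdc20 (0.10), Cdca8 (0.35), Hist1h1b (0.10), Nusap1 (0.50), Prc1 (0.39), Spc25 (0.18), Top2a (0.21), Tuba1c (0.44), Tubb6 (0.29) and Vgf (0.58). Against Crym-high cells, weighting every cell alike gave 238 higher and 54 lower genes, thinning to 2000 UMIs 280 and 134, and Crym below 250 against at least 1000 CPM 251 and 71. A cilium threshold at 0.5 of its value gave 81 higher genes, a dividing sum below 2 gave 58 lower genes, and leaving out the 3 Spp1-rich cells, also added after seeing the data, gave 54 lower genes. The cause was not tested except where fewer genes or cells entered.

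At 5000 UMIs per cell the shares of Crym-low cells were 16.1% for C3, 80.4% for Gfap, 36.5% for C4b, 36.5% for Vcan and 23.5% for Lypd1. Leiden resolutions of 0.3 and 1 gave 3 and 7 clusters. TMM scaling, totals without mitochondrial and ribosomal genes, cells of at least 10000 UMIs, cells under 10% mitochondrial UMIs and removal of called doublets left every one of the 6 gene counts within 1.5-fold. Over all alternatives but the CPM floors, which do not alter a ratio, the log2 ratio over Crym-high cells ran from 2.14 to 2.55 for C3, 1.21 to 1.54 for Vcan, 0.45 to 0.85 for Gfap, 0.46 to 0.94 for C4b and -0.29 to 0.24 for Lypd1. No paired analysis was possible because each condition has 1 library. Depth limits sparse genes: a gene seen once in a cell of 2000 UMIs stands at 500 CPM.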
